A study of Homo sapiens with 4 samples.

Results

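IL10RB, the interferon receptor chains, the shared receptor chain IL6ST, the JAK kinases JAK1, JAK2 and TYK2, and the feedback inhibitor SOCS3 were followed in U251 cells after knockdown of PRMT3. These 10 genes were chosen by name, and IL10RB was selected on these same libraries because its mRNA had one of the largest falls in the knockdown. Its fall is therefore described without a test. All 10 had an entry among the 15575 genes of the count table, and all 10 passed the filter on low counts that left 13172 genes for testing.

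U251 is an established human glioblastoma cell line. The 2 Ctrl libraries came from U251 cells carrying the pGreen control lentivirus, and the 2 PRMT3-KD libraries came from U251 cells with lentiviral shRNA against PRMT3, a protein arginine methyltransferase. The paper describes 2 shRNAs against PRMT3, and its text does not name which was used for these libraries. Whether the PRMT3-KD libraries share an shRNA is therefore not known. RNA was collected 72 h after infection, and the labels name no added cytokine. The labels do not say whether the libraries of a group came from separate cultures, so p-values measure only the spread between these libraries, which may be technical.

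As background, these receptors carry no kinase of their own. Each works as a pair of chains that hold JAK kinases at the inner face of the membrane. Binding of a cytokine brings the chains together, the kinases phosphorylate each other and the receptor, and STAT proteins dock there, are phosphorylated and move to the nucleus. IL10RB is the chain shared by the receptors for IL10, for IL22, for IL26 and for the interferon lambda group, and it binds TYK2. IFNAR1 and IFNAR2 form the receptor for type I interferons, IFNGR1 and IFNGR2 that for interferon gamma, and IL6ST is the signalling chain of the IL6 family. SOCS3 is made in response to STAT3 and blocks JAK activity at IL6ST. In gliomas, STAT3 activity has been widely studied as a driver of mesenchymal character.

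Reads per library totalled between 24804250 and 29756313, and TMM factors lay between 0.955 and 1.02. The Ctrl libraries were nearly identical (chi-square of 1.41 per degree of freedom, where counting error alone gives 1), whereas the PRMT3-KD libraries differed from each other far more (66.0 per degree of freedom). Levels are given as CPM, counts scaled to the library's size after TMM. PRMT3 itself stood at 19.3 and 19.5 CPM in Ctrl and at 3.03 and 1.58 CPM in PRMT3-KD, a log2 fold change of -3.08 (SE 0.314, edgeR adjusted p = 0.0177). All 12 glioma and astroglial markers had an entry, with a summed level of 8981 to 9003 CPM in Ctrl and 7844 to 8330 CPM in PRMT3-KD. Of the 11 tested, 4 had a log2 fold change above 0 and 7 below, from -2.03 for GFAP to 0.19 for S100B, and 1, SOX9, passed the threshold of an adjusted p under 0.05 and over 1.5-fold (-0.65, adjusted p = 0.0215). GFAP, the astrocyte filament, stood at 13.1 and 14.3 CPM in Ctrl and at 1.26 and 5.39 CPM in PRMT3-KD (adjusted p = 0.0958), and CD44 had a log2 fold change of 0.00 (adjusted p = 0.997). CHI3L1 was nearly undetected, with 0 and 2 reads in the Ctrl libraries and 0 in both PRMT3-KD libraries. Of 10 leukocyte and microglia markers 5 had an entry, and their sum was 30.3 to 31.7 CPM in Ctrl and 33.1 to 33.8 CPM in PRMT3-KD. Most of that sum was CD68 (665 and 704 reads against 753 and 845), while CSF1R was at 5.27 and 5.42 CPM against 2.48 and 3.45 CPM and CD14 at 12 and 11 reads against 6 and 6, and none of the 4 tested passed the threshold. Of 8 endothelial and epithelial markers 5 had an entry, and their sum was 45.2 to 47.3 CPM in Ctrl and 91.4 to 139 CPM in PRMT3-KD, where KRT18 (log2 fold change 1.37, adjusted p = 0.0192) and KRT8 (1.10, adjusted p = 0.0248) rose. CDH5 stood at 5.05 and 5.31 CPM in Ctrl and at 5.08 and 25.4 CPM in PRMT3-KD, high in replicate 2 alone, and VWF had a log2 fold change of -0.27 (adjusted p = 0.668). The part of these markers in the receptor results was not tested.

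Of the 10 genes, 4 receptor genes lie side by side on chromosome 21. On GRCh37, the assembly that the deposited counts call hg19, IFNAR2 spans chr21:34577587-34637980, IL10RB chr21:34638672-34683725, IFNAR1 chr21:34696692-34732170 and IFNGR2 chr21:34775719-34851655, each on the plus strand. The others lie elsewhere, with IFNGR1 at chr6:137518620-137540586, IL6ST at chr5:55230923-55290850, JAK1 at chr1:65298906-65533437, TYK2 at chr19:10461209-10491284 and SOCS3 at chr17:76352859-76356158 on the minus strand, and JAK2 at chr9:4984390-5129948 on the plus strand. Exons of IFNAR2 and IL10RB overlap those of an annotated read-through transcript of both genes on the same strand, so reads from it cannot be told apart from theirs. IFNGR2 overlaps TMEM50B and JAK1 overlaps RAVER2 on the other strand, and the sources used here do not say whether counting used strand.

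The start of IL10RB is shown because it was the only promoter of the 9 members in the RefSeq promoter table (GRCh38.p14, 250 bases before to 50 after the start, IFNAR2 not in the table) with the letters of a STAT site. The motifs searched, on both strands, were the GAS form TTCNNNGAA, which reads the same on both strands, and the interferon-response core, which is GAAA, then any 2 bases, then GAAA. The motifs share GAA and may overlap. The first was present in 7.88% of 27305 promoters and the second in 3.65%, and the second was in 0 of the 9 members. The capitals mark the GAS letters on the plus strand of chr21:33266117-33266416, and GC content was 66.7% against a median of 58.3% over all promoters. A match describes letters and is no sign of binding.
IL10RB promoter: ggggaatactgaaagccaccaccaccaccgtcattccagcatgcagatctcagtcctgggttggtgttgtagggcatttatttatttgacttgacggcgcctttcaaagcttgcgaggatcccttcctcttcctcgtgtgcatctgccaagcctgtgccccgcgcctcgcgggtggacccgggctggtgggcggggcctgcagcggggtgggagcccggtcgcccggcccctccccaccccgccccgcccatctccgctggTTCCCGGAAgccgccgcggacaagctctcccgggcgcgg

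A second set of letters, CAGCTCA, was picked out in an earlier scan of 3′ UTRs on these same libraries, so it is shown as a description, and its relation to the changes was not tested here. Searched on the transcript strand only, CAGCTCA occurred once in the 3′ UTR of IL10RB and once in that of IL6ST, and in 0 of the other 8 members. It was present in 17.5% of the 12619 tested genes with a 3′ UTR of at least 50 bases, and in 7.64% of the 1401 genes whose 3′ UTR length was within 20% of that of IL10RB. The 3′ UTR of IL6ST is 5987 bases long, against 864 for IL10RB. A share among genes with a 3′ UTR as long as that of IL6ST was not counted. The sites lie in the last exon of each gene, inside the printed stretches at chr21:34669391-34669417 (plus strand, GRCh37) and chr5:55233150-55233176 (minus strand). The coding sequence of PRMT3 holds the same letters in exon 7 of 16, inside the printed stretch at chr11:20419215-20419241 (plus strand). Capitals mark the shared letters.
IL10RB 3′ UTR: caagggtggtCAGCTCAatgctacaca
IL6ST 3′ UTR: taaaaggtggCAGCTCAgggtgagctc
PRMT3 coding exon: gtgtttatttCAGCTCAtacgggcatt

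IL10RB mRNA was strongly reduced in both PRMT3-KD libraries. The Ctrl libraries held 561 and 621 reads of it and the PRMT3-KD libraries 84 and 140, or 20.2 and 22.6 CPM against 3.31 and 4.93 CPM. The groups lie far apart, and PRMT3-KD replicate 1 is the lower library. The mean dropped from 21.4 ± 1.65 CPM (SD, n = 2) to 4.12 ± 1.15 CPM (SD, n = 2), which is 5.18-fold lower, with a log2 fold change of -2.37 (SE 0.223). PRMT3 had the other order, with the lower level in PRMT3-KD replicate 2. The place of IL10RB by size of the fall restates how it was chosen and supports nothing. It was rank 4 in the list of 656 genes called lower with a mean level over 10 CPM. Just ahead of it stood E2F2, a cell cycle transcription factor (log2 fold change of -2.43), and just behind it LMNB2, a nuclear lamin (-2.25), and HMGB2, a chromatin protein (-2.08).

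None of the other 9 genes passed this threshold in edgeR's quasi-likelihood test, where 10.9% of the 13172 genes did (4.97% higher and 5.97% lower in PRMT3-KD). DESeq2 and limma-voom also called 0 of the 9, against 1831 and 1690 of the 13172 genes. In edgeR 3 of the 9 had an unadjusted p under 0.05, against 4950 of the 13172 genes. Without the fold requirement, 2 of the 9 had an adjusted p under 0.05, against 17.3% of all genes. Their log2 fold changes ran from -0.48 to 0.46 with a median of -0.12, beside a median of 0.01 over all genes tested. In 7 of the 9 the groups did not overlap (4 with PRMT3-KD above and 3 below), against 67.1% of all genes (33.3% above and 33.8% below), so 7 of 9 is close to that background. With 2 libraries a group, the smallest p of an exact permutation test is 0.333, and p-values of single genes therefore come from the edgeR model across all genes.

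**Figure D1:**
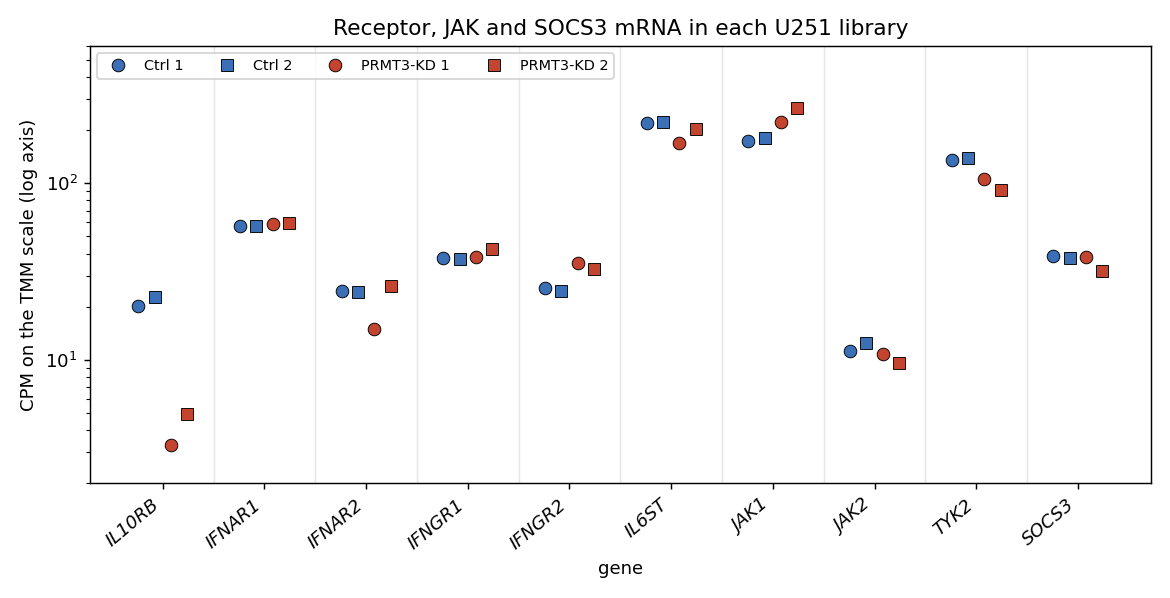
CPM on the TMM scale (log axis) of each of the 10 genes in the 2 Ctrl (blue) and 2 PRMT3-KD (red) libraries, 1 point per library, with circles for replicate 1 and squares for replicate 2. IL10RB drops from 20.2 and 22.6 to 3.31 and 4.93 CPM, none of the other 9 genes passes the threshold, and the PRMT3-KD libraries lie on both sides of Ctrl for IFNAR2.

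The receptor genes next to IL10RB on the chromosome did not pass the threshold. IFNAR1, the low-affinity chain of the type I interferon receptor, stood at 57.3 and 57.5 CPM in Ctrl and at 59.2 and 59.3 CPM in PRMT3-KD. All 4 libraries are within a narrow band. IFNAR1 had a log2 fold change of 0.05 (SE 0.0708, 95% interval -0.14 to 0.23, edgeR adjusted p = 0.675), so the interval leaves out a change of 1.5-fold in either direction.

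IFNAR2, the high-affinity chain, stood at 24.5 and 24.2 CPM in Ctrl and at 15.0 and 26.0 CPM in PRMT3-KD. Replicate 1 of PRMT3-KD is below both Ctrl libraries and replicate 2 is above both, so the groups overlap. The log2 fold change of -0.25 (SE 0.278) had a wide 95% interval, from -0.99 to 0.49 (edgeR adjusted p = 0.565). It was 0.10 without PRMT3-KD replicate 1 and -0.71 without PRMT3-KD replicate 2, where it passed the threshold (adjusted p = 8.2e-08). With 1 PRMT3-KD library the spread is that of the close Ctrl pair.

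Of the interferon gamma receptor, the ligand-binding chain IFNGR1 stood at 37.9 and 37.3 CPM in Ctrl and at 38.2 and 42.3 CPM in PRMT3-KD, and the groups are nearly in contact. Its log2 fold change was 0.10 (SE 0.0924, 95% interval -0.15 to 0.35, edgeR adjusted p = 0.486). The accessory chain IFNGR2 stood at 25.7 and 24.5 CPM in Ctrl and at 35.3 and 32.9 CPM in PRMT3-KD. Both PRMT3-KD libraries are above both Ctrl libraries. The log2 fold change of IFNGR2 was 0.44 (SE 0.0926, 95% interval 0.20 to 0.69, edgeR adjusted p = 0.0439), which is 1.36-fold and short of the fold requirement. The adjusted p of IFNGR2 ran from 0.0414 to 0.0872 over 7 other ways of testing.

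IL6ST, the signalling chain for IL6, LIF and oncostatin M, stood at 219 and 223 CPM in Ctrl and at 168 and 203 CPM in PRMT3-KD. Both PRMT3-KD libraries are lower, and they differ more from each other than the Ctrl libraries do. IL6ST had a log2 fold change of -0.25 (SE 0.113, 95% interval -0.55 to 0.05, edgeR adjusted p = 0.185).

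**Figure D2:**
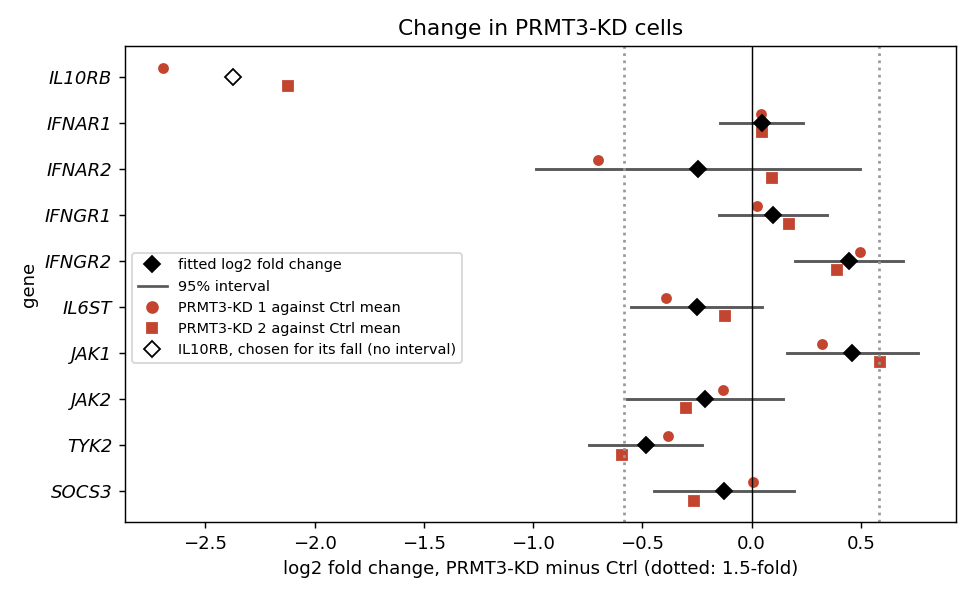
Log2 fold change (PRMT3-KD minus Ctrl) of the 10 genes from edgeR, where diamonds are fitted values, lines are 95% intervals, red points are the 2 PRMT3-KD libraries each against the Ctrl mean, and dotted lines mark 1.5-fold. IL10RB, drawn without an interval, lies at -2.37, and the other 9 lie between -0.48 and 0.46.

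Ratios of raw counts within a library do not depend on scaling. The ratio of IL10RB to IFNAR1 was 0.353 and 0.393 in Ctrl and 0.0559 and 0.0831 in PRMT3-KD. The ratio of IL10RB to IFNAR2 was 0.825 and 0.932 in Ctrl and 0.220 and 0.189 in PRMT3-KD. Both ratios were lower in both PRMT3-KD libraries, and that difference contains the fall for which IL10RB was chosen. The ratio of IFNGR2 to IFNGR1, which does not contain IL10RB, was 0.677 and 0.655 in Ctrl and 0.924 and 0.777 in PRMT3-KD, higher in both.

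None of the kinases passed the threshold. JAK1, which serves most receptors of both cytokine receptor classes, stood at 174 and 181 CPM in Ctrl and at 222 and 267 CPM in PRMT3-KD. Both PRMT3-KD libraries are higher. JAK1 had a log2 fold change of 0.46 (SE 0.112, 95% interval 0.16 to 0.76), which is 1.38-fold, and its adjusted p of 0.0585 in edgeR was above the threshold, with a range of 0.0162 to 0.0633 over 7 other ways of testing.

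TYK2, the kinase bound by IL10RB and IFNAR1, stood at 136 and 139 CPM in Ctrl and at 105 and 91.1 CPM in PRMT3-KD. Both PRMT3-KD libraries are lower. The log2 fold change of TYK2 was -0.48 (SE 0.0970, 95% interval -0.74 to -0.23, edgeR adjusted p = 0.0410), which is 1.40-fold lower and short of the fold requirement, and its adjusted p ran from 0.00949 to 0.0662 over the same 7. The ratio of TYK2 to JAK1 counts was 0.777 and 0.767 in Ctrl and 0.473 and 0.341 in PRMT3-KD, lower in both.

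JAK2, which serves IFNGR2 and the erythropoietin receptor, was the least abundant kinase, at 11.3 and 12.4 CPM in Ctrl and at 10.8 and 9.64 CPM in PRMT3-KD. The groups are close without overlapping. JAK2 had a log2 fold change of -0.21 (SE 0.133, 95% interval -0.57 to 0.14, edgeR adjusted p = 0.310). SOCS3 stood at 38.6 and 37.7 CPM in Ctrl and at 38.3 and 31.8 CPM in PRMT3-KD, and the groups overlap. Its log2 fold change was -0.12 (SE 0.120, 95% interval -0.44 to 0.20, edgeR adjusted p = 0.501).

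Levels were compared between genes per kilobase of the canonical transcript (RPKM, mean ± SD, n = 2). In Ctrl the order ran from JAK1 (34.9 ± 0.914), TYK2 (32.3 ± 0.530), IL6ST (24.5 ± 0.317) and IFNGR1 (18.1 ± 0.191) through IFNGR2 (14.8 ± 0.497), SOCS3 (14.0 ± 0.228) and IL10RB (11.0 ± 0.849) to IFNAR1 (9.45 ± 0.0233), IFNAR2 (5.98 ± 0.0571) and JAK2 (1.69 ± 0.115). Neighbours in this order did not overlap between the 2 Ctrl libraries. In PRMT3-KD, IL10RB stood at 2.12 ± 0.591 RPKM and moved from rank 7 to rank 9, above only JAK2 (1.46 ± 0.119), and IFNGR2 (20.1 ± 0.996) and IFNGR1 (19.4 ± 1.41) changed places with overlapping libraries. TYK2 and IL6ST also overlapped there, as did IL6ST and IFNGR2. Canonical lengths stand in for the isoforms of U251, which were not analysed here.

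The rest of the pathway was read from lists of 95 names, of which 63 were tested. Of these, 9 passed the threshold, 8 higher and 1 lower, and the median log2 fold change was 0.21, with 41 above and 22 below 0. Over all genes tested, 10.9% passed (4.97% higher and 5.97% lower), the median was 0.01, and 6649 lay above and 6523 below 0. With both directions pooled, the share called in the pathway is near the background. The directions differ from it, since 8 of the 9 calls were higher, and this lean was not tested. By group, 0 of 10 ligands passed, 6 of 17 other receptors (5 higher, 1 lower), 2 of 5 STATs and IRF9, 1 of 19 inhibitors and phosphatases, and 0 of 12 STAT3 targets, each to be read against the same 10.9% of all genes, which in groups this small gives few calls. The medians were 0.07 for ligands, 0.22 for other receptors, 0.30 for STATs and IRF9, 0.22 for inhibitors and 0.04 for STAT3 targets. IL10RA, the partner of IL10RB for IL10, and JAK3 had no entry under these names in the counts.

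STAT3, the main STAT of IL6ST and of the IL10 receptor, rose. It stood at 208 and 213 CPM in Ctrl and at 333 and 380 CPM in PRMT3-KD, and the groups lie apart. The log2 fold change of STAT3 was 0.76 (SE 0.0927, edgeR adjusted p = 0.0201). IRF9, which joins STAT2 in the type I interferon response, rose by 0.85 (11.7 and 10.9 CPM against 23.3 and 17.4 CPM, adjusted p = 0.0429). STAT2 (-0.06, adjusted p = 0.806) did not pass.

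Among receptors, the genes that rose were F3, tissue factor, a coagulation receptor with the fold of this receptor class (1.34, edgeR adjusted p = 0.0140), IL27RA (1.25, adjusted p = 0.0317) and IL31RA (1.08, adjusted p = 0.0380). IL27RA pairs with IL6ST, and IL31RA pairs with OSMR (0.20, adjusted p = 0.394). IL6R, the IL6-binding chain (0.77, adjusted p = 0.0462), and the leptin receptor LEPR (0.67, adjusted p = 0.0221) also rose, whereas the erythropoietin receptor EPOR fell by 0.86 on the log2 scale (adjusted p = 0.0329). Exons of LEPR overlap those of LEPROT, and exons of EPOR overlap those of RGL3, on the same strand. How the counts divided such reads is not given in the sources used here. IFNLR1, the partner of IL10RB for interferon lambda, had a log2 fold change of 0.22 (adjusted p = 0.356). LIFR, which pairs with IL6ST, had an adjusted p of 0.0396 but a log2 fold change of only -0.43.

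SOCS5 was the inhibitor that passed, at 49.1 and 47.0 CPM in Ctrl and 70.7 and 98.7 CPM in PRMT3-KD (0.82, edgeR adjusted p = 0.0473). SOCS1 (-0.24, adjusted p = 0.701), SOCS2 (0.28, adjusted p = 0.102) and CISH (0.87, adjusted p = 0.207) did not, nor did USP18, which restrains IFNAR2 (1.09, adjusted p = 0.0576). PTPN1 (0.56, adjusted p = 0.0215) and CBL (0.57, adjusted p = 0.0242) had an adjusted p under 0.05 but fell short of the fold requirement. IL6 had a log2 fold change of -0.70 (adjusted p = 0.0593) and IL11 one of 0.75 (adjusted p = 0.0574). Of the 10 ligands tested, 5 lay above 0 and 5 below. The number of pathway genes past the threshold was 14 with DESeq2, which called 1831 of all 13172 genes.

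**Figure D3:**
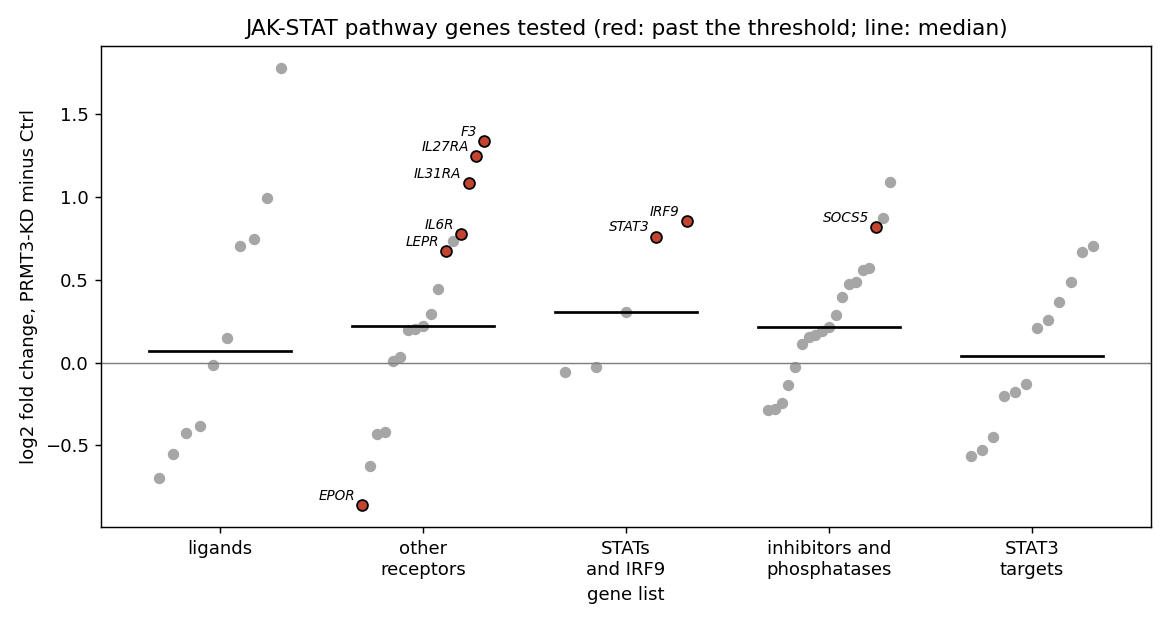
Log2 fold change (PRMT3-KD minus Ctrl) of the tested pathway genes, grouped by role, with 1 point per gene, the median as a line and genes past the threshold in red. Among the 63 genes, 41 lie above 0 and 9 pass the threshold, with F3 highest of those at 1.34 and EPOR the only one below 0 at -0.86.

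Further out on chromosome 21, 17 of the 18 neighbours of the receptor cluster with an entry were tested, and 2 passed the threshold, close to the 10.9% of all genes. MRPS6, a mitochondrial ribosomal protein, rose from 49.1 and 49.4 CPM in Ctrl to 98.2 and 111 CPM in PRMT3-KD (1.09, SE 0.0921, edgeR adjusted p = 0.0148). DONSON, a replication fork protein, fell from 39.3 and 36.4 CPM to 20.9 and 16.0 CPM (-1.04, SE 0.159, adjusted p = 0.0263). Exons of MRPS6 overlap those of SLC5A3 on the same strand, and exons of DONSON overlap those of SON on the other strand. SLC5A3 stood at 101 and 97.8 CPM in Ctrl and at 113 and 249 CPM in PRMT3-KD (0.87, adjusted p = 0.183). SON had a log2 fold change of -0.16 (adjusted p = 0.153). How the counts divided reads from shared exons is not given in the sources used here. The median log2 fold change of the 17 was 0.05, beside 0.01 over all genes tested.

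**Figure D4:**
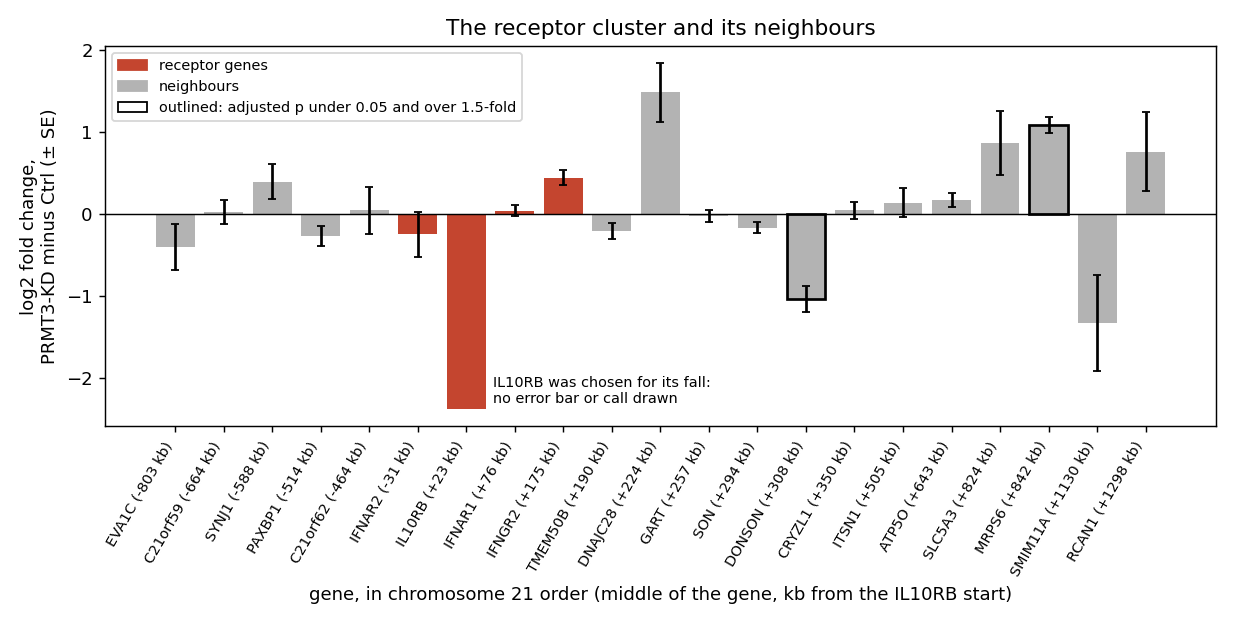
Log2 fold change (PRMT3-KD minus Ctrl, bars; error bars are SE) of the receptor genes (red) and their tested neighbours (grey) on chromosome 21, ordered by the distance of the gene's middle from the start of IL10RB, in kb. Outlined neighbours pass the threshold, MRPS6 at 1.09 and DONSON at -1.04, and IL10RB at -2.37 is drawn without an error bar or call because it was chosen for its fall.

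The genes whose levels ran most like those of IL10RB were found by the root mean square difference of centred log2(CPM + 1) over the 4 libraries, among genes whose mean reached 10 CPM. They were HIPK2, a nuclear kinase (0.116), PMP22, a myelin protein (0.202), CKAP4, a protein of the endoplasmic reticulum (0.225), PGK1, a glycolytic enzyme (0.231), and DPYSL2, a regulator of microtubules (0.252). HIPK2 had 511 and 513 CPM in Ctrl and 113 and 156 CPM in PRMT3-KD, with PRMT3-KD replicate 1 lower. That order was part of the likeness by which the gene was chosen. PMP22 and DPYSL2 had the same order, CKAP4 was nearly equal (120 and 121 CPM), and PGK1 had the other order (198 and 190 CPM). Log2 fold changes of the 5 were -1.93, -1.76, -1.85, -1.89 and -1.68 in the same order, and they are a description, since likeness to IL10RB chose the genes.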

How the data were processed

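The 2 Ctrl and 2 PRMT3-KD libraries of U251 cells were grouped and numbered from their labels. The authors deposited raw, unnormalized counts per gene, made by TopHat alignment to hg19 and Cufflinks; the submitters' processing notes also list CASAVA and DESeq2. Versions, gene annotation and strandedness are not given in the sources used here. After removal of 1 duplicate entry, 15575 genes remained.

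The test was edgeR 4.0.16 in R 4.3.3 (filterByExpr with minimum count 10 and minimum total 15, TMM, glmQLFit, glmQLFTest), and p-values were adjusted over 13172 genes by Benjamini-Hochberg. Standard errors and 95% intervals were derived from the same fit. The threshold was an adjusted p of 0.05 together with a change of 1.5-fold. Alternatives in the test and the scaling were DESeq2 1.42.0, limma-voom with group weights (limma 3.58.1), upper-quartile scaling and library totals only. Further alternatives were other filters, the replicate number as a block, other fold thresholds and leaving out each library. The code was tested on simulated data. Libraries held 24804250 to 29756313 counts, and genes with few reads are measured imprecisely.

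Positions came from GENCODE 44 on GRCh37 coordinates, where 99.9% of the identifiers were found. Promoters came from RefSeq (GRCh38.p14). Motifs were counted with Python 3.11.15 and pandas 2.3.3. The members and lists were chosen with earlier results of these data known. Named genes were fixed by rule as the 10 members, PRMT3, pathway genes past the threshold, further pathway genes whatever their values (IL10RA, IFNLR1, LIFR, OSMR, IL6R, JAK3, STAT2, STAT3, IRF9, SOCS1, SOCS2 and CISH), chromosome 21 neighbours, and the 5 genes most like IL10RB. IL6, IL11, USP18, PTPN1, CBL, E2F2, LMNB2, HMGB2 and the markers were named after their values were seen. A listed gene and the list of its targets are not reported here and were left out of the pathway counts, a restriction made after the data were seen.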

Additional observations from a re-analysis of the deposited data

How the results depend on the processing

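The log2 fold change of IL10RB lay between -2.41 and -2.37 over 7 alternatives and between -2.70 and -2.12 when a library was left out. Of the other 9 genes, 0 passed the threshold under every alternative except that 2 (IFNGR2 and TYK2) did with no fold threshold, and from 0 to 2 did when a library was left out (JAK1 and TYK2 without PRMT3-KD replicate 1, IFNAR2 without PRMT3-KD replicate 2). The count of pathway genes was 9, against 14 with DESeq2 and 3 over 2-fold, and from 0 to 23 when a library was left out. The count of chromosome 21 neighbours was 2, and from 0 to 6 when a library was left out. Leaving out either Ctrl library left 0 calls among all genes, and leaving out a PRMT3-KD library left the spread to the close Ctrl pair and gave 3066 and 2989 calls. With a library left out, IFNAR2 ran from -0.71 to 0.10 and SOCS3 from -0.26 to 0.00016, and the sign turned for IFNAR2 without PRMT3-KD replicate 1 and for SOCS3 without PRMT3-KD replicate 2. The cause was not tested.

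With the replicate number as a block, 9 pathway genes passed, IL10RB stood at -2.39, and the adjusted p was 0.0825 for IFNGR2 and 0.0576 for TYK2. Deviations of same-numbered libraries correlated by 0.0197 across genes, so the numbers are not shown to pair the libraries. Precision is limited by 2 libraries per group and by the PRMT3-KD pair, whose biological coefficient of variation was 0.204 against 0.0107 in Ctrl.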
